A study of Rattus norvegicus with 12 samples.

Results

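The miR-7 family was followed in hippocampal small RNA, sequenced from 12 adult Sprague Dawley males. All rows of the count lists with the stem rno-miR-7a or rno-miR-7b were taken, which gave 4 of the 753 mature miRNAs listed: rno-miR-7a-5p, rno-miR-7b, rno-miR-7a-1-3p and rno-miR-7a-2-3p. Each of the 4 was also among the 420 miRNAs that had enough reads to be tested. The vehicle group held 4 rats (animals 9, 10, 19 and 20) and the ethanol group 8 rats (animals 3, 4, 7, 8, 15, 16, 23 and 24), and tissue was taken 3 h after an intraperitoneal injection of vehicle or of 4 g/kg ethanol. The rats were 70 to 80 days old, no transgene or other allele is given for them, and the tissue is labelled as right hippocampus. Other vehicle rats of the study are not analysed here.

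A miRNA is cut from a hairpin precursor, and the strand that is loaded into the silencing complex, the guide, is kept while the opposite strand, the passenger, is mostly lost. The miR-7 guide is one of the most conserved animal miRNAs and is known from neurosecretory and neuronal cells, where it binds the circular RNA Cdr1as. In the rat, mir-7a-1 and mir-7a-2 give the same guide, and only their passenger arms tell them apart. A level of the guide is therefore a sum over both loci, while miR-7a-1-3p and miR-7a-2-3p each report a single locus.

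The mature sequences, as given by RefSeq for the assembly GRCr8, are shown because the split between loci rests on them. They are written 5′ to 3′, and capitals mark the seed, bases 2 to 8, with which a miRNA pairs to its targets.
rno-miR-7a-5p: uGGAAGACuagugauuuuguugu
rno-miR-7b: uGGAAGACuugugauuuuguugu
rno-miR-7a-1-3p: aCAACAAAucacagucugccau
rno-miR-7a-2-3p: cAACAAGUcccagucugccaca

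The guides miR-7a-5p and miR-7b are both 23 nt long and differ at 1 base, A10U, counted from 1 at the 5′ end of miR-7a-5p. They share the seed, and no other miRNA of the table that is listed in the count files had it. The passenger arms are both 22 nt long. With miR-7a-2-3p set 1 base back, 18 of 21 aligned bases are identical to miR-7a-1-3p, and the differences, counted from the 5′ end of miR-7a-2-3p, are G7A, C10A and C21U. Of these, G7A lies in the seed, and with the 1 base offset the passenger arms have different seeds. The seed of miR-7a-1-3p is shared with miR-3065-5p, which had between 0 and 7 reads a library, and that of miR-7a-2-3p with no other listed miRNA.

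The hairpins are shown for the loci that can be told apart by their passenger arms, with both mature arms in capitals.
mir-7a-1: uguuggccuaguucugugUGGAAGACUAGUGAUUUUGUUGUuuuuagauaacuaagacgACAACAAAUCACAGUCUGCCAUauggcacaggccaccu
mir-7a-2: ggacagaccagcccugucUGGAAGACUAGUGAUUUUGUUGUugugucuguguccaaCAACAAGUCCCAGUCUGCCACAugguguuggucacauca

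In GRCr8 the mir-7a-1 hairpin lies at chr17:6278692-6278788 on the plus strand, within the span of Hnrnpk, which encodes an RNA-binding protein. The mir-7a-2 hairpin lies at chr1:142215800-142215894 on the plus strand, within the span of a long noncoding RNA gene, LOC120099863. The mir-7b hairpin lies at chr9:1167436-1167545 on the plus strand, within the span of a ribosomal protein pseudogene, Rpl35l3. The tables used here do not say whether these are exonic or intronic positions. The other arm of miR-7b is not analysed here.

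The libraries held between 1960704 and 4917928 estimated counts, a 2.51-fold range. Levels are given as CPM, counts scaled to a common library total corrected by TMM factors, a scaling that sets the typical miRNA equal between libraries. At the smallest library 3 counts amount to 1.53 CPM, so all 4 miR-7 rows were well above this floor, which covers counting error only. Summed marker miRNAs of neurons, oligodendrocytes, blood, vessels, choroid plexus and endocrine cells did not separate the groups, with exact permutation p between 0.259 and 0.998 and 0 of the retained markers at a raw edgeR p under 0.05. In the neuron list 7 of 8 names were retained and summed to between 31750 and 40316 CPM in the 12 libraries, while its member miR-129-5p was at 0 throughout. All 7 had a lower fold change after ethanol, with a median log2 fold change of -0.08, beside 227 of 420 miRNAs overall. In bulk tissue, fewer cells of a type and less RNA per cell cannot be told apart.

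The guide arm dominated the family. In 12 of 12 libraries the order of the levels was miR-7a-5p, miR-7b, miR-7a-1-3p and miR-7a-2-3p. The 4 rows together took between 0.337% and 0.801% of a library's reads. By mean count miR-7a-5p ranked 37 of 753, miR-7b 63, miR-7a-1-3p 225 and miR-7a-2-3p 295. Since the arms are 22 or 23 nt long no correction for length was made, but sequences can be ligated and amplified with unequal efficiency, which these files do not measure.

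The miR-7a-5p guide, the strand that silences targets, read 4674, 4944, 3271 and 4154 CPM in vehicle rats 9, 10, 19 and 20. In the 8 ethanol rats its lowest, median and highest levels were 2184, 3682 and 4902 CPM. The groups overlapped, and the ethanol rats 3 and 4, at 2184 and 2332 CPM, lay below every vehicle rat. The mean was 4260 ± 737 CPM (SD, n = 4) after vehicle and 3647 ± 991 CPM (SD, n = 8) after ethanol. The log2 fold change was -0.22 ± 0.20 (SE), a fold of 0.856 with a 95% interval from 0.630 to 1.16, and edgeR's quasi-likelihood test gave a raw p of 0.293 and a Benjamini-Hochberg adjusted p of 0.971. The two-sided exact permutation test of mean log2 CPM gave p = 0.297. Without the ethanol rats 3 and 4 the log2 fold change was -0.02. They were picked as the lowest in this row, so leaving them out had to raise the ethanol mean. With 1 rat left out at a time it ran from -0.33 (vehicle rat 19) to -0.11 (ethanol rat 3).

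The ethanol rats 3 and 4, lowest in the guide, had the highest summed vascular markers of the 12 libraries, 67050 and 67951 CPM, against 38686 to 48381 CPM in vehicle rats and 32603 to 61876 CPM in the other ethanol rats. That sum was mostly miR-143-3p, of smooth muscle and pericytes (30261 to 64698 CPM over the ethanol rats), while endothelial miR-126a-3p spanned 416 to 617 CPM. The same rats were also highest in blood and immune markers, at 1385 and 1170 CPM, against 1125 CPM or less in the other 10 libraries. Summed neuron markers were lowest of all libraries in rat 4, at 31750 CPM. Rat 3 was at 35214 CPM, within the vehicle range of 35027 to 40316 CPM. Ethanol rat 8, next in vascular markers at 61876 CPM, had 3570 CPM of the guide. Rats 3 and 4 were picked by their guide level, and the part of any cell type in that level was not tested. Choroid plexus and cilia markers did not set these rats apart together: rat 3 was at 18433 CPM, the lowest of all libraries, and rat 4 at 55121 CPM.

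The near-identical guide miR-7b read 2299, 2623, 1604 and 2181 CPM in vehicle rats 9, 10, 19 and 20, and its lowest, median and highest ethanol levels were 1015, 1685 and 2461 CPM. Of the ethanol rats 3 of 8 lay below every vehicle rat, and the rest lay within the vehicle range. The mean was 2177 ± 425 CPM (SD, n = 4) after vehicle and 1718 ± 504 CPM (SD, n = 8) after ethanol. The log2 fold change was -0.34 ± 0.22 (SE), a fold of 0.789 with a 95% interval from 0.570 to 1.09 (edgeR raw p = 0.140, adjusted p = 0.971, exact permutation p = 0.162). Added together, miR-7a-5p and miR-7b stood at 6437 ± 1157 CPM (SD, n = 4) after vehicle and 5365 ± 1480 CPM (SD, n = 8) after ethanol. The difference of the sum was -0.30 on the log2 scale, with an interval from -0.85 to 0.24 (exact permutation p = 0.242).

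The passenger arm of mir-7a-1 was far below its guide. It read 53.5, 60.9, 56.1 and 52.8 CPM in vehicle rats 9, 10, 19 and 20. In the 8 ethanol rats miR-7a-1-3p had a lowest level of 39.9, a median of 48.0 and a highest of 67.3 CPM. Ethanol rats fell on both sides of the narrow vehicle range: 7 of 8 lay below every vehicle rat, and rat 23 lay above every vehicle rat. Of the 420 retained miRNAs, 4 (0.952%) had at least 7 of 8 ethanol rats below every vehicle rat, a count looked for after these values were seen.

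The mean of miR-7a-1-3p was 55.8 ± 3.66 CPM (SD, n = 4) after vehicle and 48.7 ± 8.21 CPM (SD, n = 8) after ethanol. The log2 fold change was -0.19 ± 0.12 (SE), a fold of 0.876 with a 95% interval from 0.729 to 1.05 (edgeR raw p = 0.140, adjusted p = 0.971, exact permutation p = 0.111). Without ethanol rat 23 the log2 fold change was -0.27 and the raw p 0.00854, with an adjusted p of 0.848 in edgeR. Rat 23 was the highest ethanol rat in this row, so leaving it out had to lower the ethanol mean. With any other single rat left out the raw p in edgeR ran from 0.160 (ethanol rat 15) to 0.295 (vehicle rat 10). The arm rested on 76 to 267 reads a library, and counting alone would give a coefficient of variation of 8.10% at the median count, against 15.0% over the 12 libraries.

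The passenger arm of mir-7a-2 was the least abundant row, and its CPM had the largest coefficient of variation of the 4, counting error included. It read 33.4, 17.9, 19.3 and 32.3 CPM in vehicle rats 9, 10, 19 and 20. Vehicle rats thus fell into a high and a low pair, and the high pair lay above every ethanol rat. In the 8 ethanol rats miR-7a-2-3p had a lowest level of 13.1, a median of 16.6 and a highest of 28.4 CPM, and 5 of 8 lay below every vehicle rat. The mean was 25.7 ± 8.25 CPM (SD, n = 4) after vehicle and 18.4 ± 5.06 CPM (SD, n = 8) after ethanol.

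The log2 fold change of miR-7a-2-3p was -0.48 ± 0.22 (SE), a fold of 0.715 with a 95% interval from 0.512 to 0.999. Its raw edgeR p was 0.0493, the highest of the 17 raw p-values under 0.05 among 420 miRNAs (4.05%), of which 10 were for lower levels after ethanol (2.38%). The adjusted p was 0.971, and the exact permutation test gave p = 0.0828. In the edgeR fit 0 of 420 miRNAs (0%) had an adjusted p under 0.05, while DESeq2 called 1 and limma-trend 0. Without vehicle rat 9 the log2 fold change was -0.34 (raw p = 0.188 in edgeR's quasi-likelihood test; the exact permutation test was run on all 12 libraries), and without vehicle rat 20 it was -0.31 (raw p = 0.225). Of the 12 fits that leave out 1 rat, 4 kept a raw p under 0.05. The raw p was also above 0.05 without ethanol rats 3 (0.0938), 4 (0.0813), 7 (0.0770), 8 (0.0558), 15 (0.0727) or 23 (0.0819), each in edgeR, and 3 of the 10 other alternatives kept it under 0.05. This arm is on a list that the study chose from libraries that include these, so its lower mean here is not independent evidence of that direction. The arm rested on 29 to 152 reads a library, with a counting coefficient of variation of 13.4% at the median count against 33.3% measured.

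**Figure D1:**
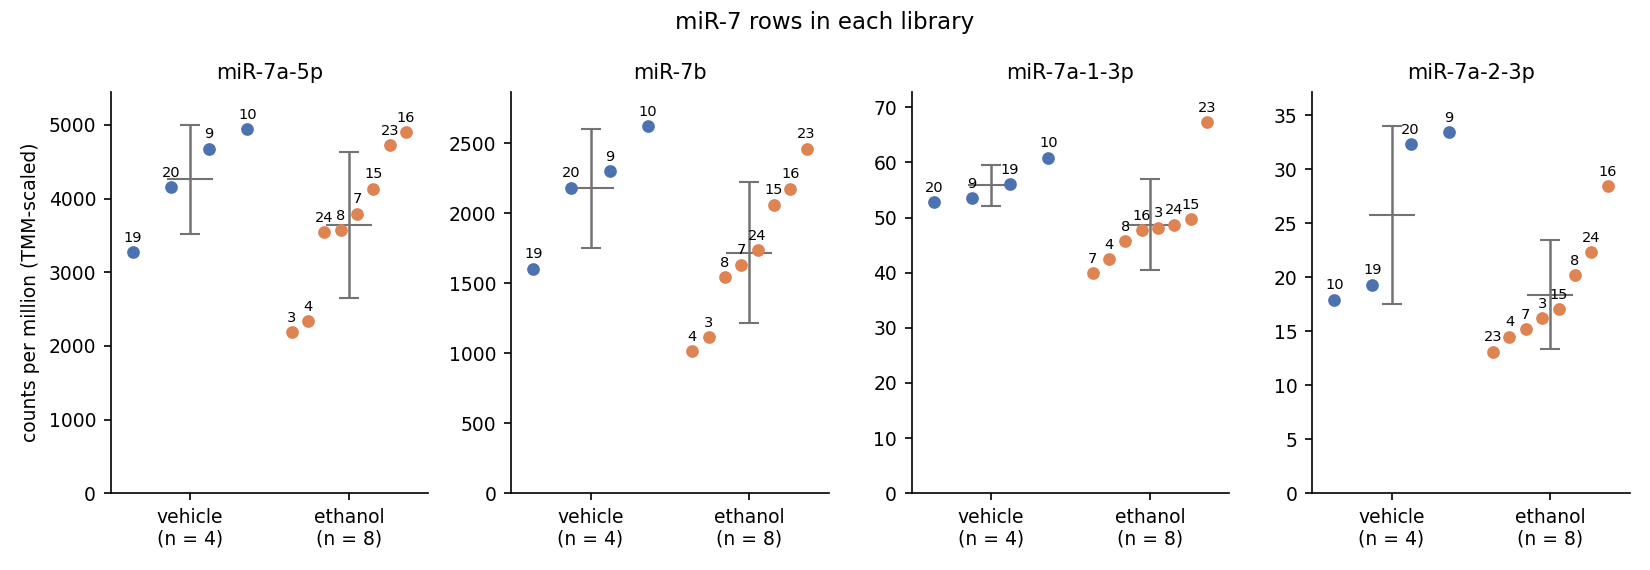
Level of each miR-7 row in CPM (linear axes from 0), 1 point per rat with its animal number, and the mean with SD as a horizontal mark and bar. In miR-7a-1-3p 7 of 8 ethanol rats lie below all 4 vehicle rats and rat 23, at 67.3 CPM, lies above them. In miR-7a-2-3p vehicle rats 9 and 20 (33.4 and 32.3 CPM) stand above the other libraries.

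All 4 rows had a lower mean after ethanol, and none passed the adjusted threshold. Over all 420 miRNAs 227 had a negative and 193 a positive fold change, with a median log2 fold change of -0.02. The 4 rows are not separate pieces of evidence: miR-7a-5p shares its hairpins with the passenger arms and differs from miR-7b at 1 base, so that reads may have been divided between them. The biological coefficient of variation fitted by edgeR was 24.6% for miR-7a-2-3p, 14.9% for miR-7a-1-3p, 24.8% for miR-7a-5p and 26.4% for miR-7b, and its median over all retained miRNAs was 16.1%.

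The ratio of each passenger arm to the shared guide asks whether a locus or an arm moved on its own, and since both arms come from 1 library it needs no scaling. The ratio of miR-7a-1-3p to miR-7a-5p was 1.14%, 1.23%, 1.72% and 1.27% in vehicle rats 9, 10, 19 and 20. Its lowest, median and highest values in ethanol rats were 0.974%, 1.33% and 2.21%. The ethanol values spanned the vehicle range on both sides, and the highest, 2.21% and 1.82%, belonged to rats 3 and 4, in which the guide was lowest. The mean was 1.34% ± 0.256 (SD, n = 4) after vehicle and 1.42% ± 0.412 (SD, n = 8) after ethanol. The log2 ratio differed by 0.05, with an interval from -0.41 to 0.54 (exact permutation p = 0.820, adjusted p = 0.968 over 149 pairs of arms), and its sign turned without vehicle rat 9 (-0.02), ethanol rat 3 (-0.05) or ethanol rat 4 (-0.01).

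The ratio of miR-7a-2-3p to miR-7a-5p was 0.714%, 0.362%, 0.591% and 0.779% in vehicle rats 9, 10, 19 and 20. In ethanol rats its lowest, median and highest values were 0.278%, 0.573% and 0.742%. The groups overlapped over most of their range, and ethanol rat 23 alone lay below every vehicle rat. The mean was 0.611% ± 0.184 (SD, n = 4) after vehicle and 0.529% ± 0.152 (SD, n = 8) after ethanol. The log2 ratio differed by -0.20, with an interval from -0.82 to 0.43 (exact permutation p = 0.493, adjusted p = 0.968). Single rats moved this difference: it was -0.43 without vehicle rat 10, -0.11 without vehicle rat 9, -0.07 without vehicle rat 20 and -0.08 without ethanol rat 23.

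Among the 149 pairs of arms with enough reads, 2 (1.34%) had an exact p under 0.05, and neither mir-7a pair was one of them. The median change over these pairs was -0.02 on the log2 scale, within a range from -0.66 to 0.51. In 24 pairs the log2 ratio fell further than in the mir-7a-2 pair. Arms were paired by name, mostly as the 3p over the 5p arm whichever was more abundant. A fall in the ratio is therefore not always a fall of the passenger arm against the guide, and the 24 do not count passenger arms. Each mir-7a passenger arm was farther from the guide in level than the arms of the median pair were from each other. The log2 ratios had a mean size of 6.20 for mir-7a-1 and 7.54 for mir-7a-2, against a median of 4.25. Of the 149 pairs, 40 and 26 were less balanced than these. The guide sums both loci and each passenger arm reports 1, so the ratios overstate the gap between the arms of a locus.

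**Figure D2:**
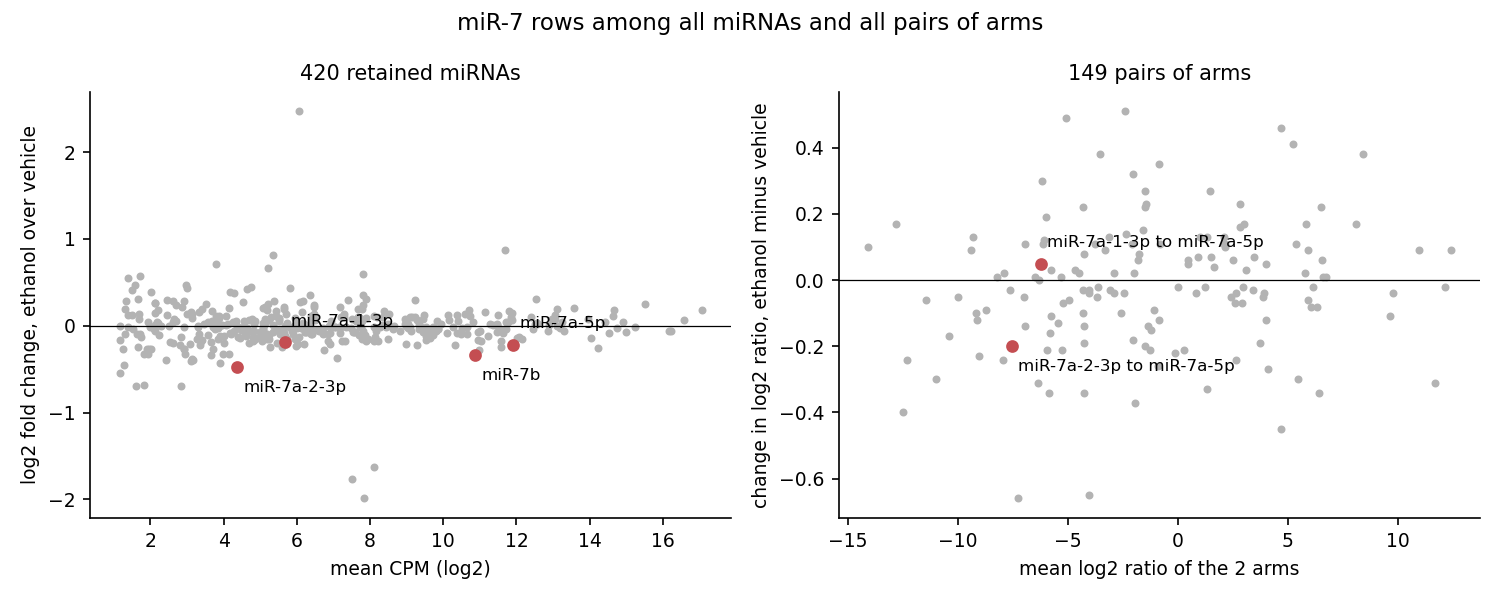
Left, log2 fold change of ethanol over vehicle against mean CPM (log2) for the 420 retained miRNAs, with the 4 miR-7 rows in red. Right, change in the log2 ratio of arms against the mean log2 ratio for the 149 pairs, with the mir-7a pairs in red. The miR-7 rows lie below 0, at -0.22, -0.34, -0.19 and -0.48, and the mir-7a pairs, at 0.05 and -0.20, lie among the other pairs.

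The passenger arms compare the loci with each other. The ratio of miR-7a-2-3p to miR-7a-1-3p was 62.3%, 29.4%, 34.5% and 61.3% in vehicle rats 9, 10, 19 and 20. The lowest, median and highest ratios in ethanol rats were 19.5%, 36.2% and 59.6%. Vehicle rats 9 and 20 were the highest of all, ethanol rat 16 came next at 59.6%, and the other 9 libraries lay at or below 45.8%. The mean was 46.9% ± 17.4 (SD, n = 4) after vehicle and 38.6% ± 11.7 (SD, n = 8) after ethanol. The log2 ratio differed by -0.26, with an interval from -0.87 to 0.41 (exact permutation p = 0.396, adjusted p = 0.649 over 10 pairs of loci that share a guide). The difference was -0.45 without vehicle rat 10, -0.09 without vehicle rat 9, -0.10 without vehicle rat 20 and -0.12 without ethanol rat 23. Of these 10 pairs 0 (0%) had an exact p under 0.05, and their changes ranged from -0.32 to 0.77.

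As a share of all passenger reads, mir-7a-2 gave 38.4% (95% Wilson interval 32.7% to 44.4%) in vehicle rat 9, 22.7% (17.3% to 29.3%) in rat 10, 25.6% (21.4% to 30.4%) in rat 19 and 38.0% (33.4% to 42.8%) in rat 20. Among ethanol rats the share ran from 16.3% (12.2% to 21.5%) in rat 23 to 37.3% (31.2% to 43.9%) in rat 16. The intervals of vehicle rats 9 and 20 lie above those of vehicle rats 10 and 19, which describes these libraries, since the rats were paired by their values. Chi-square per degree of freedom was 8.53 among vehicle and 4.25 among ethanol rats, where counting of independent molecules gives values near 1, and amplified reads are not independent molecules. The mean share was 31.2% ± 8.19 (SD, n = 4) after vehicle and 27.4% ± 6.10 (SD, n = 8) after ethanol.

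**Figure D3:**
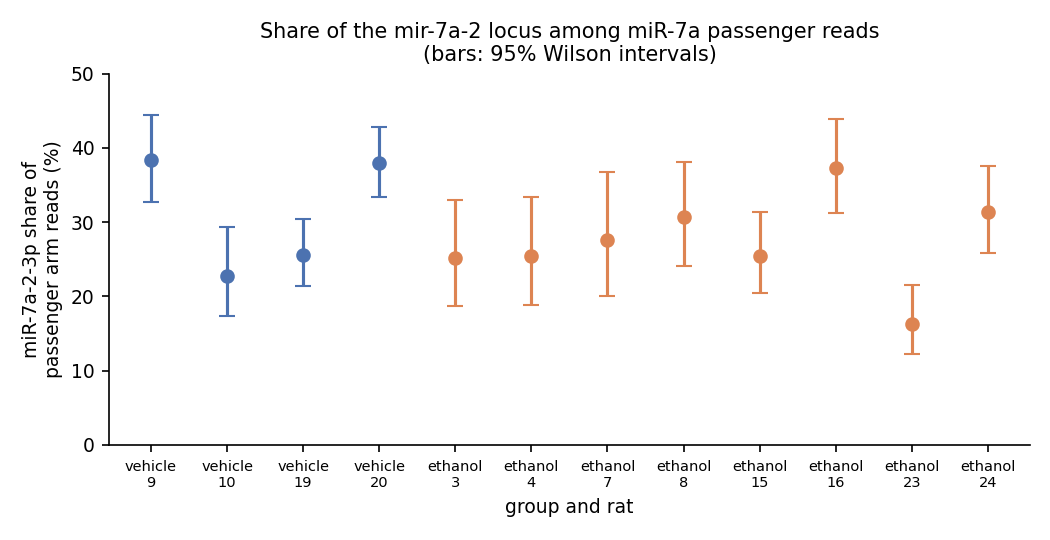
Share of miR-7a-2-3p among the reads of both mir-7a passenger arms in each library (%), with 95% Wilson intervals that cover counting error only. Vehicle rats 9 and 20 and ethanol rat 16 lie between 37.3% and 38.4%, and ethanol rat 23 is lowest at 16.3%.

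The ratio of the guides miR-7a-5p and miR-7b varied less than the miR-7 ratios with a passenger arm, with a 1.23-fold range over the libraries against 2.27-fold or more. As miR-7b over miR-7a-5p it was 49.2%, 53.1%, 49.1% and 52.5% in vehicle rats 9, 10, 19 and 20. Ethanol rats fell into 2 sets: rats 4, 7, 8 and 16 lay between 43.0% and 44.4%, and rats 3, 15, 23 and 24 lay among the vehicle values, the 8 libraries outside the low set spanning 49.1% to 53.1%. The mean was 51.0% ± 2.13 (SD, n = 4) after vehicle and 47.0% ± 3.87 (SD, n = 8) after ethanol. The log2 ratio differed by -0.12, with an interval from -0.27 to 0.03 (exact permutation p = 0.103).

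The low set of the guide ratio was also the 4 lowest libraries in miR-7a-1-3p, though no gap set them apart there. Rats 4, 7, 8 and 16 read 39.9 to 47.7 CPM of this passenger arm, and the other 8 libraries 48.2 to 67.3 CPM, a match seen after the values were known and not tested. Both guide rows hold fractional counts in 12 of 12 libraries, which can arise when a read matches more than 1 sequence, and how reads were divided is not given in the sources used here. The ratio of the guide rows varied from 43.0% to 53.1%, while that of miR-26b-5p to miR-26a-5p stayed between 95.6% and 96.1%. These are ratios of whole rows, so they do not show how reads were divided. The ratio of miR-101b-3p to miR-101a-3p, also fractional in 12 of 12 libraries, varied from 76.8% to 89.2%.

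**Figure D4:**
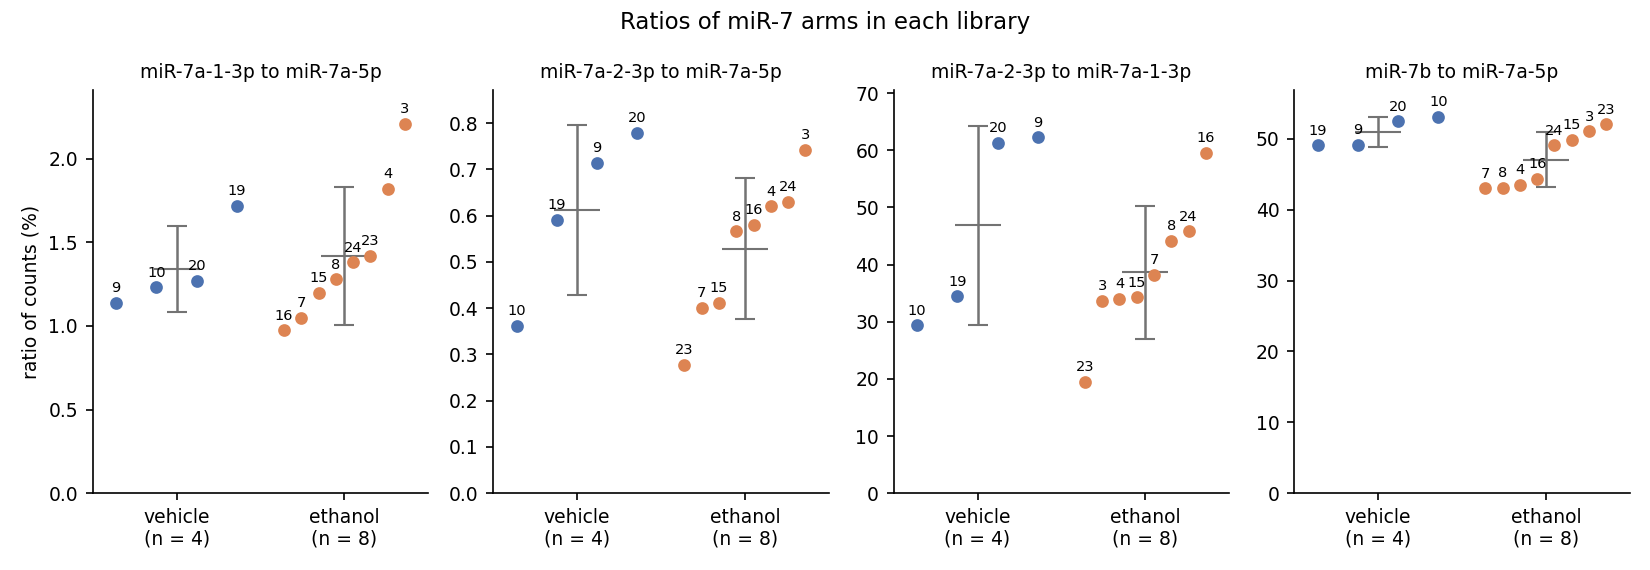
Ratio of counts (%, linear axes from 0) for each passenger arm to the guide, the passenger arms to each other and the guides to each other, 1 point per rat with its animal number, and the mean with SD. The groups overlap in each panel, and in the ratio of miR-7b to miR-7a-5p ethanol rats 4, 7, 8 and 16 lie apart at 43.0% to 44.4%.

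Across the 12 libraries, no relation of a passenger arm with the guide had an adjusted p under 0.05. The guide sums both loci, so these relations do not compare the arms of 1 hairpin. The log2 CPM of miR-7a-1-3p and miR-7a-5p had a Pearson r of 0.49 (permutation p = 0.104, adjusted p = 0.287 over 3 relations) and a Spearman rho of 0.47 (permutation p = 0.126, adjusted p = 0.377). Without ethanol rats 3 and 4, the farthest from the median of the guide, r was 0.43, and within the 8 ethanol rats it was 0.42. For miR-7a-2-3p and miR-7a-5p r was 0.40 (permutation p = 0.192, adjusted p = 0.287) and rho 0.27 (permutation p = 0.390, adjusted p = 0.586). A few rats moved that value both ways: without rats 3 and 4 r was 0.15, and without ethanol rat 23 it was 0.59. Within ethanol rats it was 0.34. Over all 149 pairs of arms the median r was 0.35, with 63.1% of pairs below the mir-7a-1 pair and 52.3% below the mir-7a-2 pair. The 4 vehicle rats are too few for a correlation of their own.

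The passenger arms of the 2 loci had an r of 0.03 (permutation p = 0.933, adjusted p = 0.933) and a rho of 0.12 (permutation p = 0.717, adjusted p = 0.717). Without vehicle rat 10 and ethanol rat 23, the farthest from the median of miR-7a-1-3p, r was 0.61, and within the 8 ethanol rats it was -0.20, so no relation between the loci was settled by these libraries. The guides miR-7a-5p and miR-7b had an r of 0.97, which is given without a test because reads may have been divided between them.

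**Figure D5:**
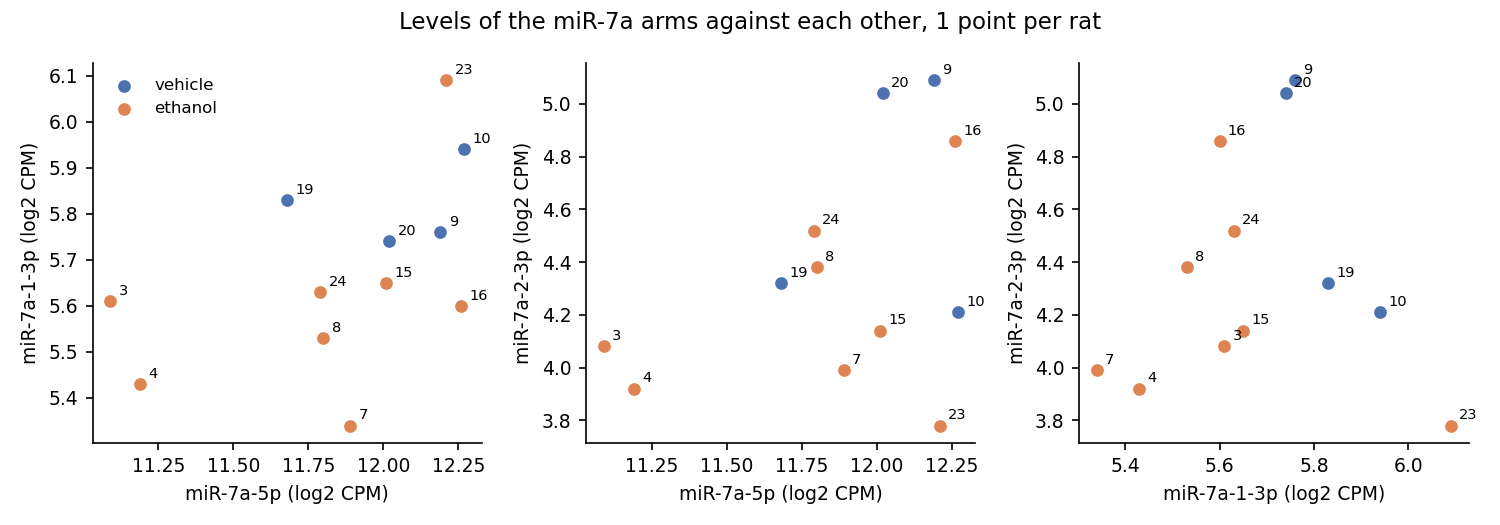
Levels of the miR-7a arms against each other (log2 CPM on both axes), 1 point per rat with its animal number, vehicle in blue and ethanol in orange. Rats 3 and 4 lie lowest in miR-7a-5p, and rat 23 lies highest in miR-7a-1-3p and lowest in miR-7a-2-3p.

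Patterns most like each row were sought among the other 416 retained miRNAs by Pearson r of log2 CPM over 12 libraries, as a description without a test, since all values share library and scaling. For miR-7a-5p the leading miRNA was miR-139-3p (r = 0.85, rho = 0.93), followed by miR-370-3p (r = 0.84, rho = 0.74) and miR-128-1-5p (r = 0.82, rho = 0.78). The leading miRNA for miR-7b was miR-9a-5p, an abundant brain miRNA (r = 0.86, rho = 0.92), and miR-370-3p and miR-128-1-5p came next at 0.85 and 0.83. For miR-7a-1-3p it was miR-138-1-3p, itself a passenger arm (r = 0.90, rho = 0.85), which like it was highest in ethanol rat 23, at 38.1 CPM, and lowest in ethanol rat 7, at 19.9 CPM. Next came miR-128-3p and miR-374-5p, at 0.77 and 0.76.

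For miR-7a-2-3p the leading miRNAs were miR-125b-2-3p (r = 0.86, rho = 0.82), let-7d-3p (r = 0.83, rho = 0.86) and miR-1b (r = 0.81, rho = 0.59). The last belongs to the miR-1 family, known from heart and skeletal muscle. In vehicle rats 9, 10, 19 and 20 miR-1b read 539, 24.3, 315 and 487 CPM. Ethanol rat 16 was at 517 CPM and the other 7 ethanol rats lay between 26.1 and 63.5 CPM. The 3 libraries highest in miR-7a-2-3p, vehicle rats 9 and 20 and ethanol rat 16, were also the 3 highest in miR-1b. The muscle miRNAs miR-133a-3p and miR-133b-3p, looked at after seeing the data, had an r of 0.73 and 0.80 with miR-7a-2-3p, and these 3 libraries were among their 4 highest, with vehicle rat 19 as the other. After ethanol miR-1b differed by -1.76 on the log2 scale, miR-133a-3p by -1.99 and miR-133b-3p by -1.63, and the edgeR adjusted p was 0.971 for all 3. Their raw p-values in edgeR were 0.0621, 0.0166 and 0.0511. The part of muscle RNA in the level of miR-7a-2-3p was not tested. None of the 10 miRNAs named as most alike had an adjusted p under 0.05 in edgeR.

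Of the known partners of miR-7, the circular RNA Cdr1as is a long RNA that these libraries do not measure. Of a list of 5 names of this circuit, only miR-671, a miRNA known to direct the cutting of Cdr1as, was found in the counts. The row name gives no arm, so its level is not a reading of the arm that directs the cut. It read 181 ± 24.8 CPM (SD, n = 4) after vehicle and 177 ± 18.1 CPM (SD, n = 8) after ethanol, a log2 fold change of -0.03 ± 0.11 (SE; edgeR adjusted p = 0.997, exact permutation p = 0.796). Its groups overlapped, at 164 to 217 CPM in vehicle and 140 to 201 CPM in ethanol rats.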

How the data were processed

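The authors purified 20 to 30 nt RNA from 1 µg of total RNA per rat, prepared TruSeq Small RNA libraries and sequenced 37 cycles on a MiSeq in sets of 8 libraries; the set of each library is not given, so batches could not be compared. The deposited values are estimated counts (expected counts) that the authors made per mature miRNA, not scaled to depth. The submitters' processing notes name cutadapt, Partek and the build rn5, without roles or versions.

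Counts were rounded, a miRNA was left out if 10 or more libraries had under 10 reads of it, and edgeR 4.0.16 (R 4.3.3; quasi-likelihood, TMM, Benjamini-Hochberg over 420 miRNAs) compared the groups without covariates. Log2 CPM used a prior count of 2, except for the sum of the guides, which used CPM without one. Log2 ratios used a pseudocount of 0.5, except that of miR-7b to miR-7a-5p, which used unrounded counts without one. Ratios in % used counts without a pseudocount. Exact permutation tests were two-sided over all 495 splits (smallest p 0.00202) and correlations used 100000 permutations. Alternatives were DESeq2 1.42.0, limma-trend 3.58.1, other scalings, filters and pseudocounts, and each rat left out. Scripts were tested on simulated data. P-values measure the spread between rats, which may share litters or, since the study housed rats in pairs, cages.

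Sequences came from a RefSeq table (GRCr8, which is not the files' build), in which 688 of 753 names and all 4 miR-7 names were found. The named miRNAs were the miR-7 rows, the 3 retained miRNAs most alike to each, their circuit list, seed sharers and marker lists; the miR-26, miR-101 and miR-133 rows were added after their values were seen. Members and lists were chosen with earlier results of these data known.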

Additional observations from a re-analysis of the deposited data

Results flagged for a closer look

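Ethanol rat 23 stood apart in miR-7a-1-3p at 6.09 log2 CPM, where the other 7 ethanol rats lay between 5.34 and 5.65. Its gap to the nearest rat was 0.579 of the whole range of the group, above Dixon's 95% critical value for 8 samples. This was the 1 far sample among 16 groups examined over 8 measures, and chance alone gives about 1 in 20. The same library was lowest of the 12 in miR-7a-2-3p and in the share of passenger reads from mir-7a-2.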

How the results depend on the processing

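Each of the 4 miR-7 rows kept a negative log2 fold change under all 22 alternatives run for it and never reached an adjusted p under 0.05: miR-7a-5p ranged from -0.33 to -0.02, miR-7b from -0.46 to -0.14, miR-7a-1-3p from -0.27 to -0.13 and miR-7a-2-3p from -0.61 to -0.31. The raw p of miR-7a-2-3p lay between 0.0113 and 0.225 and was under 0.05 in 7 of the 22. Over the 12 fits that each leave out 1 rat, the number of miRNAs with an adjusted p under 0.05 ranged from 0 to 3 (3 without ethanol rat 16), and DESeq2 gave 1. The number with a raw p under 0.05, 17 in the reported fit, ranged from 5 to 24 with each rat left out: it was 9 without vehicle rat 9, 5 without vehicle rat 20, 10 without ethanol rat 4 and 11 without ethanol rat 8. Leaving out ethanol rats 3 and 4 together, chosen after seeing the data, gave 7. The small difference in the ratio of miR-7a-1-3p to miR-7a-5p changed sign without vehicle rat 9 (-0.02), without ethanol rat 3 (-0.05), without ethanol rat 4 (-0.01) and without both 3 and 4 (-0.13), and its leave-one-out values ran from -0.05 to 0.18. The correlation between the passenger arms was -0.30 on deviations from group means, -0.15 without rats 3 and 4, and -0.13 to 0.39 with each rat left out. The cause of these shifts was not tested. The other ratios and relations kept their sign, with leave-one-out values from -0.43 to -0.07 for miR-7a-2-3p to miR-7a-5p and from -0.45 to -0.09 for miR-7a-2-3p to miR-7a-1-3p. No paired analysis was run, because the labels give animal numbers and no pairing of vehicle with ethanol rats. Depth limits the passenger arms most, at 29 to 267 reads a library, and the guide rows may depend on how reads were divided between miR-7a-5p and miR-7b. Alternatives for miR-7b, for the pooled guide and without rats 3 and 4 were added after seeing the data.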
